A study of Mus musculus with 6 samples.

Results

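Chemokines and their receptors were examined in RNA from mammary epithelial cells isolated from *fat-1* and WT mice. The members were the rows of the count matrix whose gene symbol names a numbered chemokine of the CC, CXC, C or CX3C class or a chemokine receptor, together with the sum of all rows of the same assembled locus. There were 65 such rows of 61880, which carried 61 gene symbols and belonged to 63 of 53912 loci. Of the rows, 43 were ligands and 22 were receptors. The lymphoid chemokine genes *Cxcl13*, *Ccl19* and *Ccl21a* were not counted as members and are named only beside *Ccl21b*.

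The cells came from inguinal mammary glands of female mice aged 6 to 8 weeks on an FVB background, and each genotype had 3 pooled samples. *fat-1* is a roundworm gene for a desaturase that converts *n*-6 into *n*-3 PUFA, and it acts throughout the body of the transgenic mice rather than in the mammary epithelium alone. Both genotypes were kept for life on 1 parental diet, a modified AIN93G diet with 10% fat by weight from safflower oil, which is rich in *n*-6 PUFA. The methods give pools of 2 to 3 mice for each sample and, in another paragraph, 6 to 8 mice for each analysis, so *p*-values measure the spread between pools. Lymph nodes were removed before the glands were digested, and no sort of the cells is described. Total counts lay between 204539059 and 232148824 per sample.

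The isolates held RNA of several cell types. All 14 luminal and 10 basal epithelial markers examined were found, and their summed levels lay between 1222 and 5191 CPM (counts scaled to a common library total) for luminal and between 595 and 973 CPM for basal markers. Of the basal sum, *Pdpn*, which stromal cells also express, held 33.6% to 75.4%, and the other 9 basal markers summed to between 150.1 and 612 CPM. The 8 fibroblast markers summed to between 1662 and 6447 CPM, and the 8 B cell markers to between 599 and 1407 CPM. Of the 11 macrophage and dendritic cell markers, *Cd68* held 91.1% to 95.5% of the sum, and the other 10 summed to between 40.5 and 64.8 CPM. No listed marker of any cell type was at 0 in all samples. Marker levels here and below, that of *Cd68* among them, are locus sums and can include a neighbouring gene. In bulk samples such as these, fewer cells of a type and less RNA per cell cannot be told apart.

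Chemokines are small secreted proteins that guide the movement of leukocytes, and they are classed by the spacing of their first cysteines. Their receptors are G protein-coupled receptors, and the atypical receptors bind chemokines without the usual G protein signal and so remove or transport them. In the mammary gland, chemokines from epithelial, stromal and immune cells help to draw macrophages, eosinophils and lymphocytes to the growing ducts. Many ligands are induced by inflammatory signals through NF-κB or interferons, while others are made steadily.

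Promoter sequences of RefSeq were matched to 43 of the 61 genes. They cover 250 bases before each start and the build is GRCm38.p6. A motif of the NF-κB type, GGGANNTTCC, was searched on both strands, and it was found in 1.21% of the 32851 promoter windows of all genes. Among the members it was present in *Cxcl1*, *Cxcl2*, *Cxcl3*, *Cxcl10*, *Ccl1* and *Ccr3*. The motif TTTCNNTTTC, which resembles the core of an interferon-stimulated response element, was in 2.98% of all windows and among the members in *Cxcl10* and *Cxcl14*. The sequences of 4 ligands are shown because 3 of them share an identical run and the other holds both motifs. Capitals mark the motif matches, which overlap on both strands in the first 3. All are written 5′ to 3′ on the strand of the gene, from chr5:90890995-90891244 for *Cxcl1*, chr5:90903649-90903898 for *Cxcl2*, chr5:90785851-90786100 for *Cxcl3* and chr5:92348890-92349139 for *Cxcl10*, the last on the minus strand and the others on the plus strand.
Cxcl1: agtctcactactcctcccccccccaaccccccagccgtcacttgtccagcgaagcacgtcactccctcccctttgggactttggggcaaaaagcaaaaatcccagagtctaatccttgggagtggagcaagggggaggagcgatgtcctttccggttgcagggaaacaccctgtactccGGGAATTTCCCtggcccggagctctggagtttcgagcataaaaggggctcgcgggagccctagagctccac
Cxcl2: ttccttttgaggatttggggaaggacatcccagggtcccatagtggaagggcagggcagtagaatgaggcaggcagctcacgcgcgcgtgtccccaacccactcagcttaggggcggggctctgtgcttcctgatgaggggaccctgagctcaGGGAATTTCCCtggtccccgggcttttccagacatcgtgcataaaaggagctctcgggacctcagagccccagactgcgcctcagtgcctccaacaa
Cxcl3: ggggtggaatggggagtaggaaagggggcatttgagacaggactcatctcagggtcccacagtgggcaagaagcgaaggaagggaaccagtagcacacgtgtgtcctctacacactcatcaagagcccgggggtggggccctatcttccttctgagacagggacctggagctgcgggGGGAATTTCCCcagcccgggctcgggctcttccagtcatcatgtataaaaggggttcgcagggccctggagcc
Cxcl10: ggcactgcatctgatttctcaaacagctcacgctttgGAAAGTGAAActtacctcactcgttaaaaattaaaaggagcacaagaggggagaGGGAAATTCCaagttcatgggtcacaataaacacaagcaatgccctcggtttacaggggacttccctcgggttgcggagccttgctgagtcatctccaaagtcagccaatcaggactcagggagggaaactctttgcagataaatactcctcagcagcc
*Cxcl1*, *Cxcl2* and *Cxcl3* each held the 11-base run GGGAATTTCCC, which began 71, 97 and 73 bases before the start of the gene. In *Cxcl10*, the interferon-type match began 213 bases and the NF-κB-type match 159 bases before the start. A match describes these letters in the window and does not show that a factor was bound there. NF-κB-type sequences that depart from the searched pattern, such as ggggacttcc in the *Cxcl10* window, were not searched and are not marked.

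Levels were compared between genes as CPM per kilobase of exon, averaged over the 6 samples. *Cxcl1* stood at 1703 CPM per kilobase, with a range of 944 to 2010 that did not overlap that of the next gene. *Ccl2* followed at 600 CPM per kilobase (249 to 894) and *Cxcl2* at 295 (199 to 355), and the ranges of these 2 genes overlapped. The range of *Cxcl2* lay above that of *Ccl5*, which had a mean of 134 CPM per kilobase (77.6 to 178). From *Ccl5* down to *Cxcl3*, the range of each gene overlapped that of its neighbour in the order. The highest receptor was *Ccr7*, at 87.7 CPM per kilobase (55.9 to 138), followed by *Cxcr4* at 42.2 (28.9 to 54.2). *Cxcl1* alone accounted for 52.9% to 60.3% of the summed ligand CPM of a sample, and *Cxcl1*, *Cxcl2* and *Ccl2* together for 76.8% to 83.9%. All member ligands summed to between 3096 and 6994 CPM and all member receptors to between 260 and 605 CPM. Where a locus held several symbols, only the row of the member entered these sums and shares. The other rows of the *Cxcl5* locus, among them that of the chemokine *Ppbp*, held 13.6 to 425 CPM and were left out. A row without a symbol in the locus of *Cxcl2* and *Cxcl3* was left out as well.

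**Figure D1:**
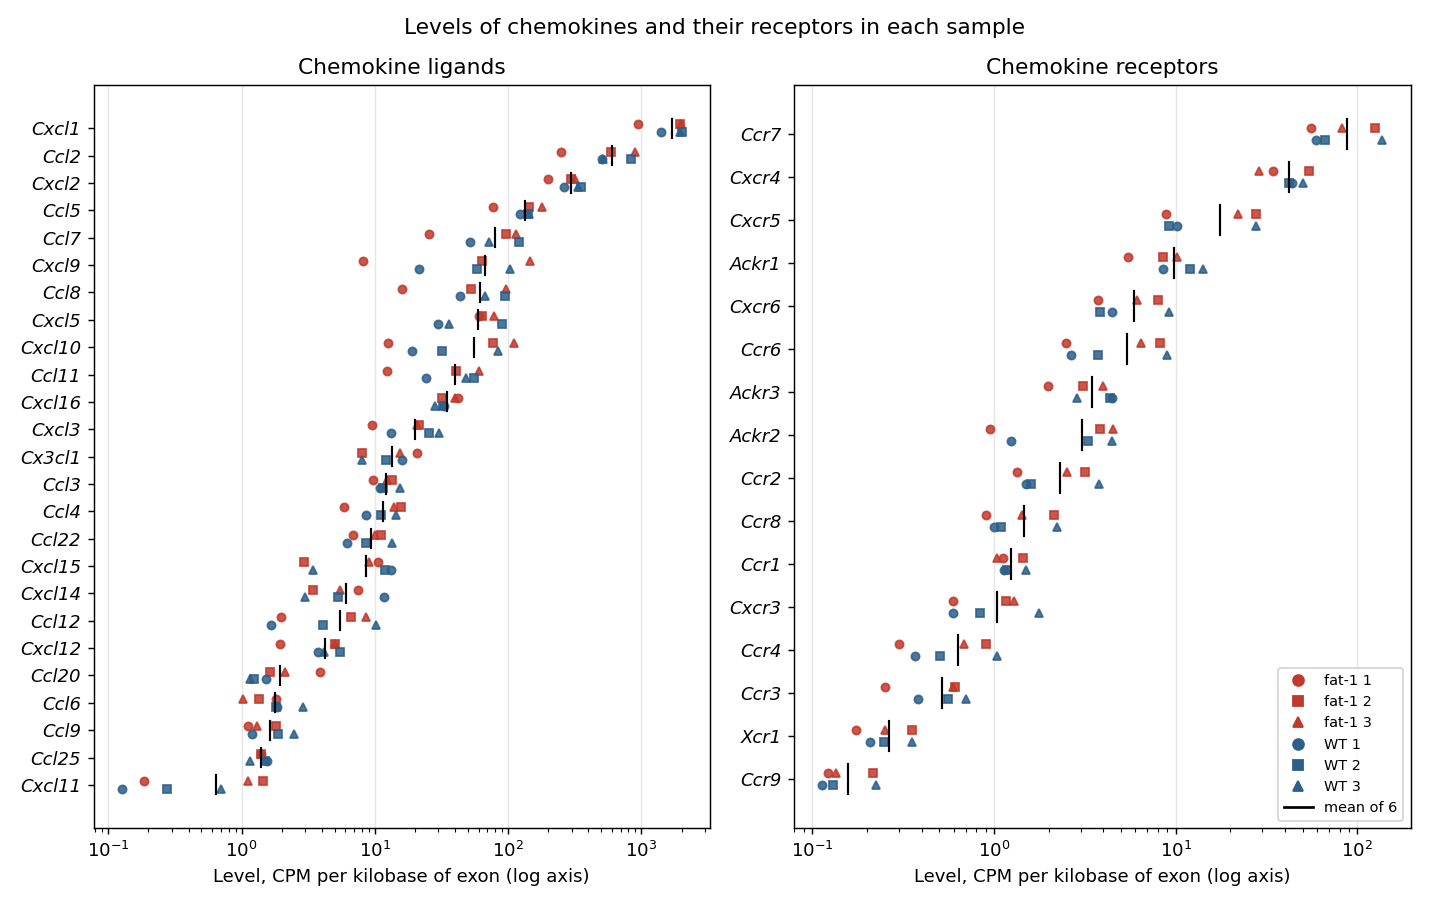
Level of ligands (left) and receptors (right) with a mean of 1 CPM or more and without a near copy in the genome, as CPM per kilobase of exon on a log axis. Red symbols are *fat-1* samples, blue symbols are WT samples, and the black bar is the mean of the 6 samples. *Cxcl1* lies to the right of every other ligand in each sample, and *fat-1* sample 1 (red circle) is the lowest point for many genes.

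No chemokine or receptor differed between genotypes past the adjusted threshold of 0.05. In the quasi-likelihood test of edgeR, with *p*-values adjusted by the Benjamini–Hochberg procedure over all tested rows, 0 of 59 member rows passed, as did 0% of the 30683 tested rows, and the smallest adjusted *p*-value of a member was 1.00. For locus sums, 0 of 58 member loci passed, as did 0% of 24061 loci, again with a smallest adjusted *p*-value of 1.00. The exact test of edgeR and DESeq2 also gave 0 member rows and 0 member loci. Over all features, the exact test called 32 rows and 6 loci past the adjusted threshold, and DESeq2 called 93 rows and 8 loci. At an unadjusted *p*-value of 0.05 or less, 2 member rows (3.39%) passed, against 2.21% of all rows, by the quasi-likelihood test, and 3 member loci (5.17%) passed, against 1.14% of all loci. The exact test gave 3 member rows and 3 member loci at the unadjusted threshold, against 614 of 30683 rows and 257 of 24061 loci. DESeq2 gave 3 member rows and 5 member loci, against 928 rows and 359 loci.

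Of the member loci, 28 were higher and 30 were lower in *fat-1* samples, with a median log2 fold change of −0.00, and the median over all loci was 0.00. The split depended on single samples. Without *fat-1* sample 1, 43 of 58 loci were higher, and without *fat-1* sample 2, 19 of 60. Without WT sample 1 it was 21 of 58, and without WT sample 3 it was 39 of 60. The standard error of the log2 fold change had a median of 0.45 over the member loci and 0.26 over all loci, so that the members were measured less precisely than most genes. In 4 member loci (6.90%), the CPM of the genotypes did not overlap, against 4.15% of all loci. These were *Ccl6*, *Ccl20*, *Ackr4* and 1 of 3 loci of *Ccl21b*. That locus of *Ccl21b* had few counts, 16, 25 and 13 in *fat-1* and 9, 0 and 9 in WT. It is not the locus of *Ccl21b* with the lowest unadjusted *p*-value, in which the genotypes overlapped.

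**Figure D2:**
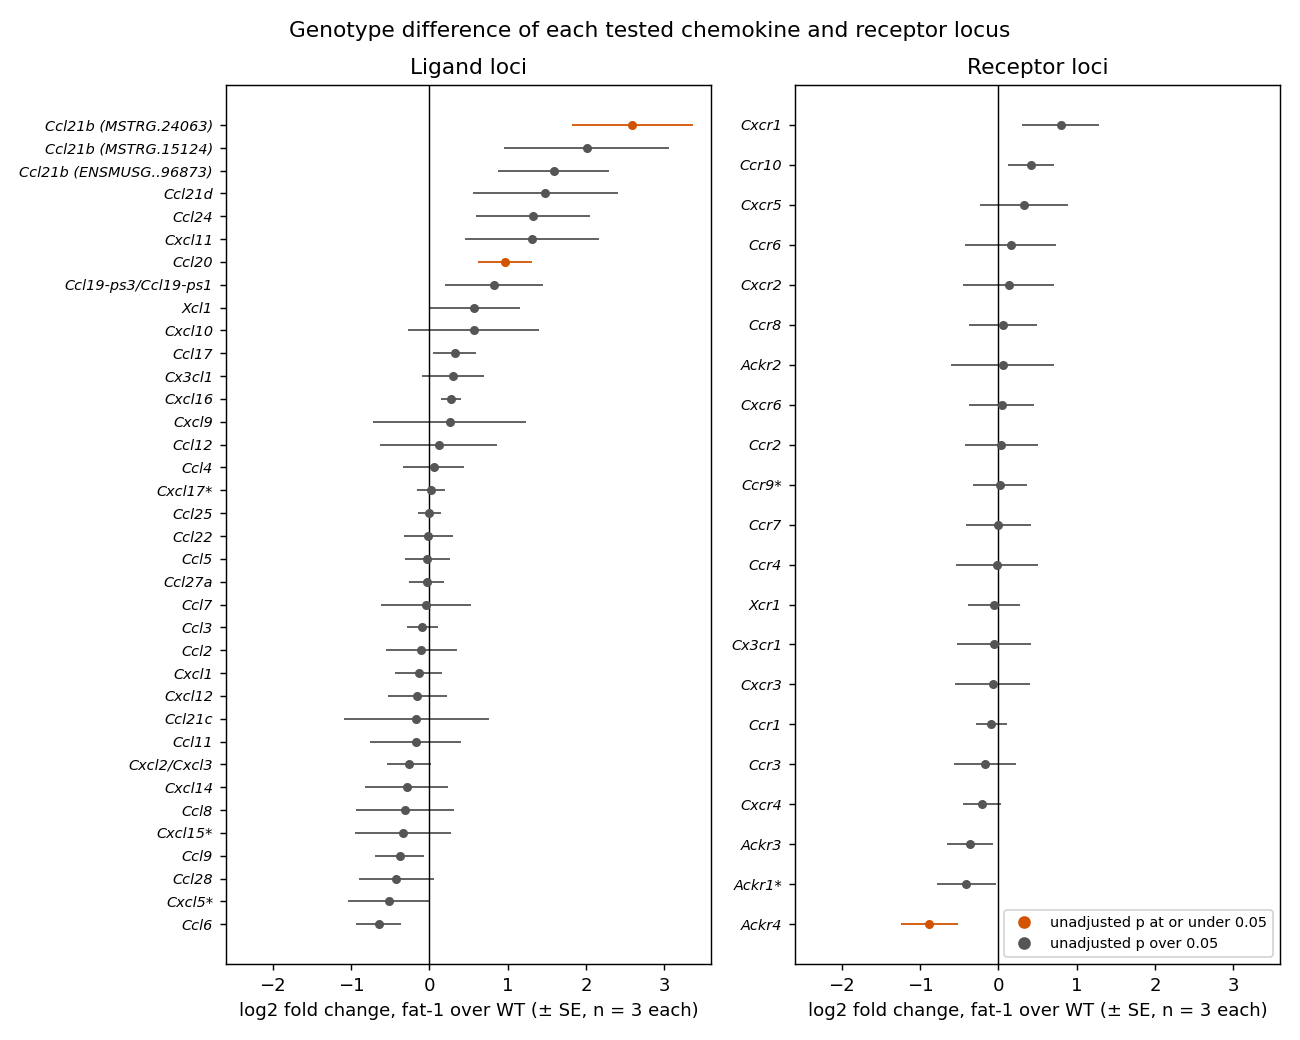
Log2 fold change of *fat-1* over WT for tested ligand loci (left) and receptor loci (right), with its standard error as a bar and 3 samples for each genotype. Orange marks an unadjusted *p*-value of 0.05 or less, and the 3 loci of *Ccl21b* carry their locus number. The asterisk marks a locus that also holds the row of a gene that is not a member, such as *Ppbp* beside *Cxcl5*. Most points lie near 0 with bars that cross it, and only *Ccl20*, *Ackr4* and 1 locus of *Ccl21b* are orange.

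*Cxcl1*, *Cxcl2*, *Cxcl3*, *Cxcl5* and *Cxcl15* are neutrophil-attracting CXC ligands with an ELR motif, and they act mainly through *Cxcr2*. They lie between chr5:90759360 and chr5:90905938 of GRCm38, in the order *Cxcl5*, *Cxcl3*, *Cxcl15*, *Cxcl1* and *Cxcl2*. The locus sum of *Cxcl1* was 1770, 3656 and 3697 CPM in *fat-1* samples 1, 2 and 3 and 2615, 3768 and 3653 CPM in the WT samples. Only *fat-1* sample 1, and to a smaller degree WT sample 1, stood below the other 4 samples. The means were 3041 ± 1101 CPM in *fat-1* and 3346 ± 635 CPM in WT (SD, n = 3 each), and the log2 fold change was −0.14 (SE 0.30). The row of *Cxcl2* had 412, 616 and 660 CPM in *fat-1* and 543, 734 and 694 CPM in WT. Here too sample 1 of each genotype was the lowest, and the genotypes overlapped. Its log2 fold change was −0.22 (SE 0.21).

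*Cxcl3* had 33.2, 74.7 and 73.1 CPM in *fat-1* and 46.5, 88.5 and 106 CPM in WT, with a log2 fold change of −0.41 (SE 0.42). *Cxcl2* and *Cxcl3* share an assembled locus number although *Cxcl1* and *Cxcl15* lie between them, so the row of each symbol was used. Reads of these related genes may have been split between rows. The locus also has a row without a symbol, which neither gene includes. Together with *Cxcl3*, that row held 46.4, 236 and 97.5 CPM in *fat-1* and 61.4, 113 and 334 CPM in WT. The sum of the whole locus had a log2 fold change of −0.26 (SE 0.28). The row of *Cxcl5*, a ligand known from epithelial cells, had 112, 119 and 146 CPM in *fat-1* and 55.3, 169 and 67.3 CPM in WT, with a log2 fold change of 0.37 (SE 0.44). Its locus also holds *Ppbp*, a platelet chemokine, and the sum of that locus had a log2 fold change of −0.52 (SE 0.51), in the other direction. The receptors of this group were scarce. *Cxcr2* had 0.318, 1.30 and 0.466 CPM in *fat-1* and 0.696, 0.380 and 0.837 CPM in WT, and *Cxcr1* had between 0.0924 and 0.340 CPM. Over these 7 ligands and receptors, 3 were higher and 4 were lower in *fat-1*, with a median log2 fold change of −0.14 and 0 past the adjusted threshold by edgeR (0 at the unadjusted threshold). Of the 7 neutrophil markers, *Ltf*, which mammary epithelial cells also express, held 65.8% to 93.8% of the sum. The other 6 summed to 19.2, 45.2 and 17.2 CPM in *fat-1* and to 29.5, 19.7 and 31.8 CPM in WT, and were highest in *fat-1* sample 2 and lowest in *fat-1* sample 3. Their part in the levels of these ligands was not tested.

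*Cxcl9*, *Cxcl10* and *Cxcl11* are interferon-induced ligands of *Cxcr3*, the receptor of activated T and NK cells, and their genes lie side by side between chr5:92321347 and chr5:92365485. Among the members with a mean of 1 CPM or more, they had the 3 highest ratios of the highest to the lowest sample in *fat-1*, and in WT *Ccl12* alone exceeded them. *Cxcl9* had 24.5, 193 and 444 CPM in *fat-1* and 64.5, 177 and 311 CPM in WT. The highest *fat-1* sample was 18.1-fold above the lowest, and the highest WT sample 4.83-fold. The log2 fold change of 0.26 (SE 0.98) was small beside this spread. *Cxcl10* had 28.2, 173 and 250 CPM in *fat-1* and 43.1, 72.0 and 190 CPM in WT, with a log2 fold change of 0.56 (SE 0.84). Both genes were lowest in sample 1 and highest in sample 3 of each genotype. *Cxcl11* lay far lower, at 0.697, 5.45 and 4.21 CPM in *fat-1* and 0.477, 1.05 and 2.67 CPM in WT. *Cxcr3* had 1.03, 2.02 and 2.22 CPM in *fat-1* and 1.03, 1.45 and 3.08 CPM in WT, and it was also lowest in sample 1 of each genotype. Of the 4 loci of these ligands and their receptor, 3 were higher and 1 was lower in *fat-1* (median log2 fold change 0.41), and 0 passed the adjusted threshold by edgeR (0 at the unadjusted threshold).

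*Ccl2*, *Ccl7*, *Ccl8* and *Ccl12* draw monocytes through *Ccr2*, and *Ccl11* (eotaxin) draws eosinophils through *Ccr3*. These genes form a cluster between chr11:82035571 and chr11:82116799. *Ccl2* had 283, 679 and 1017 CPM in *fat-1* and 581, 953 and 588 CPM in WT, with means of 659 ± 367 and 707 ± 213 CPM (SD, n = 3 each). The lowest and the highest value were both *fat-1* samples, and the log2 fold change was −0.10 (SE 0.46). *Ccl7* had 20.5, 77.1 and 92.1 CPM in *fat-1* and 41.7, 96.8 and 57.1 CPM in WT, with a log2 fold change of −0.04 (SE 0.57). *Ccl11* had 13.3, 44.2 and 65.2 CPM in *fat-1* and 26.3, 60.1 and 52.0 CPM in WT, with a log2 fold change of −0.17 (SE 0.58). All 3 genes, and *Ccl8* at 8.10 to 49.5 CPM, were lowest in *fat-1* sample 1. *Ccl12* ranged from 0.897 CPM in WT sample 1 to 5.43 CPM in WT sample 3. Of the 5 loci of *Ccr2* and its ligands, 2 were higher and 3 were lower in *fat-1* (median log2 fold change −0.04), and 0 passed the adjusted threshold by edgeR (0 at the unadjusted threshold).

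*Cxcl12*, the ligand of *Cxcr4* that stromal cells make, was also lowest in *fat-1* sample 1, with 15.8, 41.2 and 41.3 CPM in *fat-1* and 30.5, 45.0 and 33.9 CPM in WT. The 8 fibroblast markers summed to 1662, 4219 and 6447 CPM in *fat-1* and to 3530, 5991 and 5235 CPM in WT, also lowest in *fat-1* sample 1. All 8 fibroblast loci had a lower fitted level in *fat-1*, and 0 passed the adjusted threshold by edgeR (0 at the unadjusted threshold). Without *Cd68*, the 10 other macrophage and dendritic cell markers summed to 40.5, 64.8 and 62.5 CPM in *fat-1* and to 44.5, 59.0 and 64.6 CPM in WT. This sum was also lowest in *fat-1* sample 1, as were 9 of the 10 markers, whereas *Cd68* was highest there, at 860 CPM. The part of either cell type in these ligands was not tested.

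*Ccl3*, *Ccl4*, *Ccl5*, *Ccl6* and *Ccl9* are made mainly by leukocytes, and several of them act on *Ccr1* or *Ccr3*. *Ccl5*, known from T and NK cells, had 74.5, 137 and 171 CPM in *fat-1* and 118, 135 and 138 CPM in WT. The WT samples were close together and lay within the range of the *fat-1* samples, and the log2 fold change was −0.03 (SE 0.29). *Ccl3* ranged from 7.41 to 11.8 CPM and *Ccl4* from 3.87 to 10.3 CPM over the 6 samples. *Ccl6* had 3.26, 2.43 and 1.84 CPM in *fat-1* and 3.32, 3.26 and 5.19 CPM in WT. The genotypes of *Ccl6* did not overlap, by a narrow margin between *fat-1* sample 1 and WT sample 2. *Ccl9* ranged from 3.43 to 7.53 CPM. *Ccl24*, an eotaxin like *Ccl11*, stayed at or under 0.115 CPM, and *Ccl26* had no count in any sample. With *Ccl11* and the receptors *Ccr1* and *Ccr3*, 9 loci of this group were tested. In *fat-1*, 2 were higher and 7 were lower (median log2 fold change −0.09), and 0 passed the adjusted threshold by edgeR (0 at the unadjusted threshold).

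Several ligands with epithelial expression showed another order of samples. *Cx3cl1* encodes fractalkine, a membrane-bound chemokine, and had 81.5, 31.5 and 61.1 CPM in *fat-1* and 62.7, 47.2 and 31.3 CPM in WT, with a log2 fold change of 0.30 (SE 0.39). It was highest in sample 1 of each genotype. *Cxcl14* had 13.6, 6.23 and 9.99 CPM in *fat-1* and 21.4, 9.59 and 5.42 CPM in WT, and the row of *Cxcl15* had 22.3, 6.22 and 19.4 CPM in *fat-1* and 28.2, 25.2 and 7.35 CPM in WT. The luminal markers summed to 5191, 1222 and 2218 CPM in *fat-1* and to 4159, 2415 and 1297 CPM in WT, highest in sample 1 of each genotype as well. Their part in the levels of these ligands was not tested. The row of *Cxcl5*, also known from epithelial cells, was instead lowest in WT sample 1 (55.3 CPM) and highest in WT sample 2 (169 CPM). The mucosal ligand *Ccl28* was highest in WT sample 3, at 0.861 CPM.

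*Cxcl16*, the membrane-bound ligand of *Cxcr6*, was among the steadiest members, with 127, 96.5 and 120 CPM in *fat-1* and 101, 97.4 and 85.2 CPM in WT. For the locus sum, the log2 fold change was 0.28 (SE 0.13, unadjusted *p* = 0.0763, adjusted *p* = 1.00 by edgeR). The row with the symbol, which held 21.4% to 42.6% of the locus, had a log2 fold change of 0.08 (SE 0.28). *Ccl25*, the ligand of *Ccr9*, had the narrowest range of all members with a mean of 1 CPM or more, at 10.4, 10.3 and 10.4 CPM in *fat-1* and 11.5, 11.1 and 8.53 CPM in WT. *Ccl22*, a ligand of *Ccr4* made by dendritic cells, ranged from 14.4 to 31.2 CPM. The other ligand of *Ccr4*, *Ccl17*, stayed at or under 0.361 CPM.

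*Ccl20*, the ligand of *Ccr6*, was 1 of the 3 members with an unadjusted *p*-value of 0.05 or less as a locus sum. It lies at chr1:83116766-83119167 and had 1171, 496 and 627 counts in *fat-1* and 467, 399 and 336 counts in WT. In CPM these were 5.55, 2.31 and 3.01 in *fat-1* and 2.18, 1.76 and 1.63 in WT. Every *fat-1* sample lay above every WT sample, but *fat-1* sample 2 exceeded WT sample 1 only narrowly. The log2 fold change was 0.96 (SE 0.35, unadjusted *p* = 0.0307, adjusted *p* = 1.00 by edgeR). Without *fat-1* sample 1, where it was highest, the log2 fold change was 0.53 and the unadjusted *p*-value by the same edgeR test was 0.0503. The luminal marker sum was also highest in that sample. WT sample 1 had a luminal sum of 4159 CPM and *fat-1* sample 2 one of 1222 CPM, while *Ccl20* was slightly lower in the former. The part of luminal cells in the level of *Ccl20* was not tested.

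*Ackr4* encodes an atypical receptor that takes up the ligands of *Ccr7* and *Ccr9*, and it lies at chr9:104084157-104126933. It had 107, 57 and 99 counts in *fat-1* and 232, 146 and 118 counts in WT, or 0.507, 0.266 and 0.476 CPM in *fat-1* and 1.08, 0.644 and 0.574 CPM in WT. All WT samples lay above all *fat-1* samples. The log2 fold change was −0.88 (SE 0.36, unadjusted *p* = 0.0489, adjusted *p* = 1.00 by edgeR). Tested among the rows, with the same counts, *Ackr4* had an unadjusted *p*-value of 0.0563 by edgeR. Without WT sample 1, the highest, the log2 fold change was −0.55 and the unadjusted *p*-value by edgeR was 0.155. The other atypical receptors were higher in level. *Ackr1*, the venular receptor also called DARC, had 7.65, 11.96 and 14.3 CPM in *fat-1* and 11.9, 16.9 and 19.8 CPM in WT, with a log2 fold change of −0.52 (SE 0.30). *Ackr3*, which takes up *Cxcl12*, had 6.68, 10.4 and 13.4 CPM in *fat-1* and 14.9, 14.7 and 9.59 CPM in WT, with a log2 fold change of −0.36 (SE 0.30).

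The genotypes overlapped for both *Ackr1* and *Ackr3*. Of the 4 atypical receptors, with the row of *Ackr1* and the locus sums of the others, 1 was higher and 3 were lower in *fat-1*, with a median log2 fold change of −0.44 beside 0.00 over all loci, and 0 passed the adjusted threshold by edgeR (1 at the unadjusted threshold). The 7 endothelial markers summed to between 233 and 258 CPM in *fat-1* and between 248 and 293 CPM in WT. Of these, 1 was higher and 6 were lower in *fat-1*, and 0 passed the adjusted threshold by edgeR (1 at the unadjusted threshold). Their part in the levels of *Ackr1* was not tested.

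*Ccl21b*, *Ccl21c* and *Ccl21d* are near copies of *Ccl21a*, a ligand of *Ccr7* that draws naive T cells and dendritic cells to lymphoid tissue, and reads can be shared among the copies, so the count of each is uncertain. The symbol *Ccl21b* stood in 3 loci. The locus with the lowest unadjusted *p*-value had 55, 290 and 206 counts in *fat-1* and 16, 17 and 59 counts in WT, or 0.261, 1.35 and 0.990 CPM and 0.0748, 0.0750 and 0.287 CPM. *fat-1* samples 2 and 3 were high, while *fat-1* sample 1 lay below WT sample 3. The log2 fold change was 2.59 (SE 0.77, unadjusted *p* = 0.0140, adjusted *p* = 1.00 by edgeR). The other 2 loci of *Ccl21b* had log2 fold changes of 2.01 (SE 1.05) and 1.59 (SE 0.71). *Ccl21d* had 1.48 (SE 0.93) and *Ccl21c* −0.16 (SE 0.93). With *Ccr7*, 4 of these 6 loci were higher and 2 were lower in *fat-1*, and 0 passed the adjusted threshold by edgeR (1 at the unadjusted threshold).

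The related genes outside the members gave levels in the same samples. The 2 rows of *Ccl19* had log2 fold changes of 2.16 and 1.46, the 2 rows of *Ccl21a* had 1.41 each, and *Cxcl13* had 0.64. None of these rows passed the adjusted threshold by edgeR, and the 2 rows of *Ccl19* passed the unadjusted threshold. The 6 lymph node stroma markers, which include these 3 genes, summed to 49.4, 161 and 146 CPM in *fat-1* and to 31.5, 36.6 and 128 CPM in WT. Of this sum *Glycam1*, which mammary epithelium also expresses, held 63.9% to 81.9%, and the others summed to 8.93, 41.0 and 29.9 CPM in *fat-1* and to 6.52, 13.2 and 26.3 CPM in WT. The part of lymph node tissue in the *Ccl21* levels was not tested.

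*Ccr7*, which guides naive lymphocytes and mature dendritic cells, was the most abundant receptor in every sample by locus sum. The row with its symbol alone had fewer counts than *Cxcr4* in *fat-1* sample 1 and in WT samples 1 and 2. There it had 1643, 12384 and 13927 counts, against 13099, 16917 and 17258 for *Cxcr4*. The locus sum of *Ccr7* was 111, 247 and 162 CPM in *fat-1* and 118, 131 and 272 CPM in WT. The high samples were *fat-1* sample 2 and WT sample 3, the means were 173 ± 68.9 and 174 ± 85.5 CPM (SD, n = 3 each), and the log2 fold change was −0.00 (SE 0.41). *Cxcr5*, the follicular B cell receptor for *Cxcl13*, had 29.6, 91.9 and 73.9 CPM in *fat-1* and 34.0, 30.6 and 91.8 CPM in WT, with a log2 fold change of 0.32 (SE 0.56). *Ccr6*, the receptor for *Ccl20*, had 5.82, 18.9 and 14.9 CPM in *fat-1* and 6.15, 8.65 and 20.8 CPM in WT, with a log2 fold change of 0.16 (SE 0.58). In all of these receptors *fat-1* samples 2 and 3 and WT sample 3 were the 3 highest.

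*Ccr2*, the receptor of inflammatory monocytes, had 9.08, 21.5 and 17.0 CPM in *fat-1* and 10.1, 10.8 and 25.5 CPM in WT, with a log2 fold change of 0.04 (SE 0.46). The same 3 samples were the highest. The B cell markers summed to 599, 1365 and 1090 CPM in *fat-1* and to 631, 710 and 1407 CPM in WT, and the 10 T and NK cell markers to 146, 282 and 172 CPM in *fat-1* and to 124, 159 and 279 CPM in WT. These sums were also highest in *fat-1* samples 2 and 3 and WT sample 3, and their part in the receptor levels was not tested. *Ccr2*, *Ccr1*, *Ccr3*, *Ccr9*, *Cxcr6* and *Xcr1* lie between chr9:123678439 and chr9:124113557.

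*Cxcr4*, the widely expressed receptor for *Cxcl12*, did not follow this order. It had 62.1, 98.0 and 52.2 CPM in *fat-1* and 79.1, 76.2 and 90.6 CPM in WT, so the lowest and the highest sample were both *fat-1*. Its log2 fold change was −0.21 (SE 0.24). *Ccr1*, a receptor of myeloid cells, was among the steadiest receptors, between 2.94 and 4.28 CPM. *Cx3cr1*, the receptor for *Cx3cl1*, stayed between 0.190 and 0.634 CPM.

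The remaining receptors were low to moderate in level. *Cxcr6*, the receptor for *Cxcl16*, ranged from 7.24 to 17.7 CPM, and *Ackr2*, which clears inflammatory CC ligands, from 2.98 to 14.1 CPM. *Ccr4* and *Ccr8*, known from regulatory and helper T cells, ranged from 0.934 to 3.23 and from 1.06 to 2.60 CPM, and the eosinophil receptor *Ccr3* from 0.825 to 2.30 CPM. All 5 were lowest in *fat-1* sample 1. *Ccr9* ranged from 1.17 to 2.29 CPM, *Xcr1*, a receptor of cross-presenting dendritic cells, from 0.773 to 1.58 CPM, and *Ccr10* from 0.305 to 0.596 CPM.

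Among the remaining ligands, *Xcl1*, the ligand of *Xcr1*, stayed at or under 0.597 CPM, and the mucosal ligand *Ccl28* ranged from 0.197 to 0.861 CPM. The skin ligand *Ccl27a* had 1 locus at 1.32 to 2.05 CPM and 2 copies at or under 0.0888 CPM, between which reads can be shared. The row of *Cxcl17*, which shares its locus with *Lipe*, ranged from 0.0187 to 1.66 CPM, and the pseudogene *Ccl19-ps3* from 0.338 to 2.28 CPM. The 6 member rows left untested because of low counts were both copies of *Ccl27a*, *Ccl27b*, *Ccl19-ps1*, *Ccl1* and *Ccl26*, and none of them exceeded 0.0888 CPM in any sample.

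**Figure D3:**
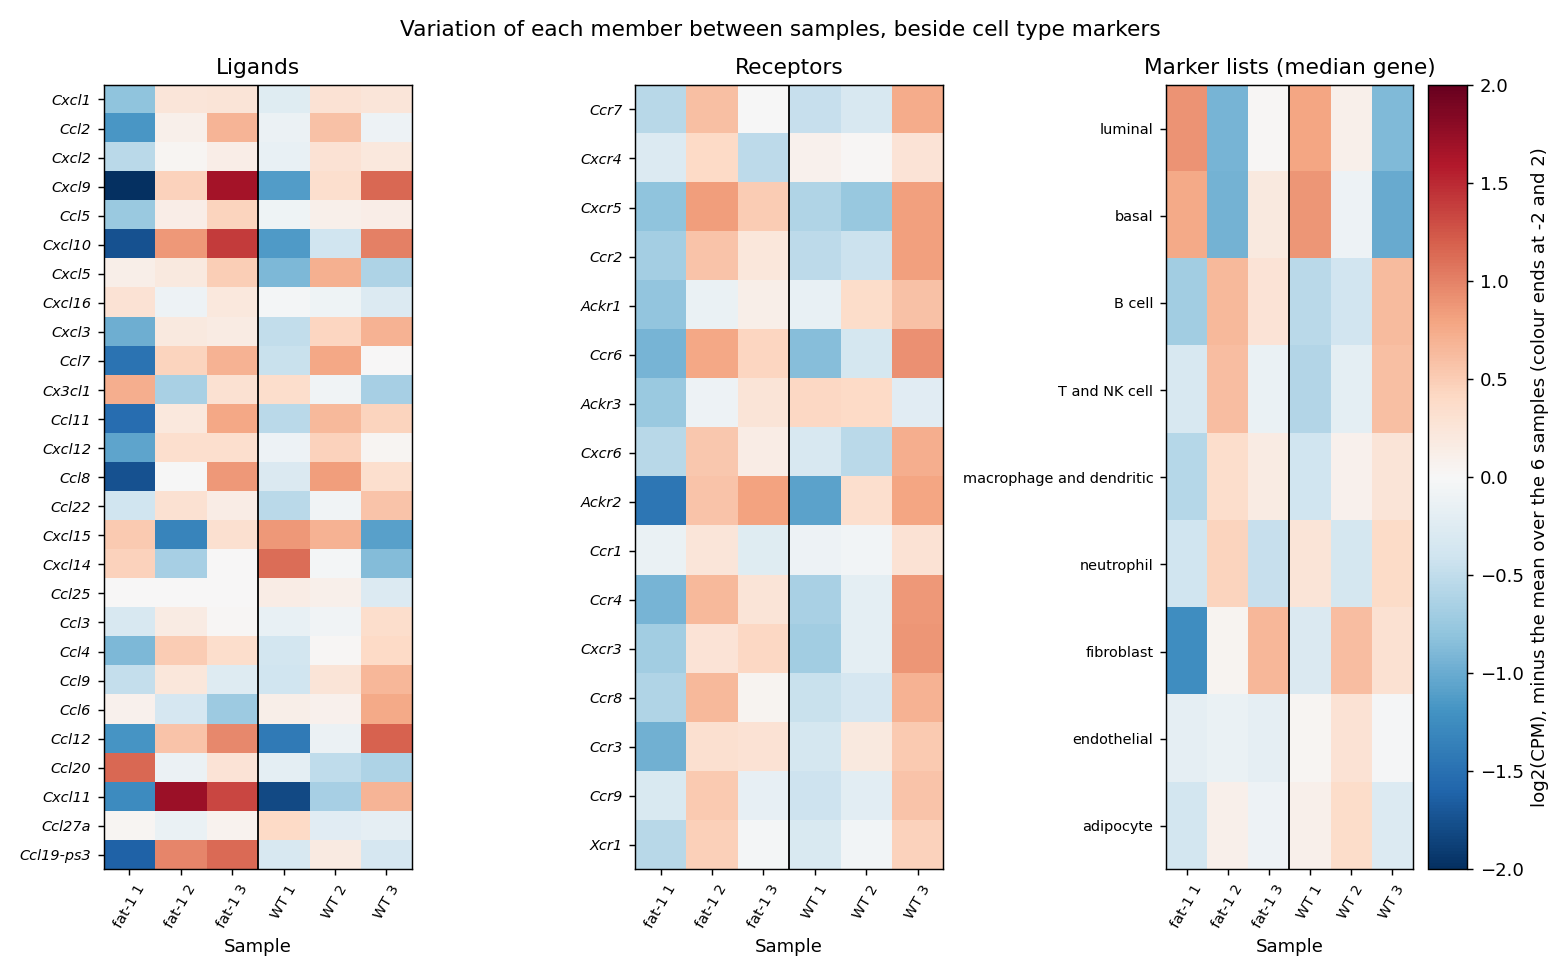
Each row shows 1 ligand (left), receptor (middle) or marker list (right) in the 6 samples, as log2(CPM) minus the mean over the samples, for members with a mean of 1 CPM or more. A marker list is shown by the median over its genes that had counts in every sample. Red is above and blue is below the mean, and the black line separates *fat-1* from WT. Most ligands and receptors are blue in *fat-1* sample 1, and most receptors are red in *fat-1* sample 2 and WT sample 3, as are the B cell and the T and NK cell lists.

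The order of samples was shared by many members. These patterns were chosen after the values were seen and carry no test. Of the 44 members with a mean of 1 CPM or more, 28 were lowest in *fat-1* sample 1, among them 15 of 27 ligands and 13 of 17 receptors, and 17 were highest in WT sample 3. Of all 14659 loci at this level, 26.8% were lowest in *fat-1* sample 1 and 19.8% were highest in WT sample 3. The ratio of the highest to the lowest sample had a median of 2.33 in *fat-1* and 2.12 in WT over these members, and of 1.30 and 1.27 over all loci. The ratio exceeded 2 for 31 members in *fat-1* and 24 in WT, and the share of all loci over 2 was not counted.

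In 16 of the member loci, StringTie had given more than 1 row, so the counts of a gene could fall in a row without its symbol. The row of *Ccr7* held 7.04%, 99.9% and 75.7% of the locus in *fat-1* and 49.1%, 46.9% and 61.6% in WT. The row alone therefore had a log2 fold change of 0.40 (SE 1.08), against −0.00 (SE 0.41) for the sum. The row of *Ccr2* held between 32.6% and 77.8% of its locus and the row of *Ccr6* between 39.7% and 100%. A two-sided exact permutation test of the share between genotypes, in which 3 against 3 samples cannot give a *p*-value under 0.1, was run for 18 members. The smallest value was that of *Cxcl5*, whose row held 52.1% ± 32.2 of its locus in *fat-1* and 22.1% ± 7.42 in WT (SD, n = 3 each, exact permutation *p* = 0.1, adjusted *p* = 0.9 over the 18).

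**Figure D4:**
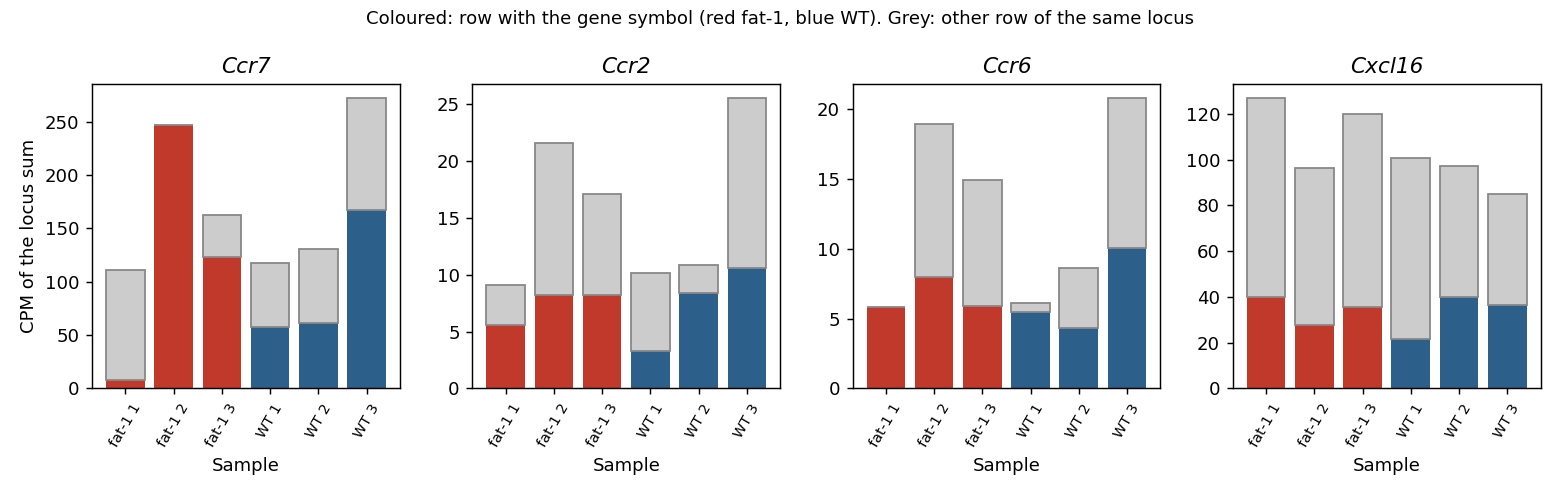
CPM of the locus sum of *Ccr7*, *Ccr2*, *Ccr6* and *Cxcl16* in each sample. The coloured part is the row with the gene symbol (red for *fat-1*, blue for WT) and the grey part is the other row of the locus. The coloured part of *Ccr7* is almost absent in *fat-1* sample 1 and makes up nearly the whole bar in *fat-1* sample 2.

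Genes that act downstream of or beside the receptors were examined from a list of 30 symbols that are not members, of which 29 were found. The list holds G protein subunits, arrestins, receptor kinases, phospholipases, regulators of G protein signalling and leukocyte migration factors. Of their 29 loci, 21 were higher and 8 were lower in *fat-1*, with a median log2 fold change of 0.06, and 0 passed the adjusted threshold by edgeR (0 at the unadjusted threshold). The G protein subunits were steady. *Gnai2*, the inhibitory alpha subunit most used by chemokine receptors in leukocytes, had 325, 296 and 316 CPM in *fat-1* and 315, 279 and 305 CPM in WT, with a log2 fold change of 0.06 (SE 0.08). The leukocyte gene *Dock2*, an activator of Rac in migrating lymphocytes, had 70.5, 149 and 111 CPM in *fat-1* and 66.9, 79.6 and 161 CPM in WT, with a log2 fold change of 0.10 (SE 0.40). *Dock2* thus had the same 3 highest samples as *Ccr7*. *Dpp4*, a protease that trims several chemokines, had 21.7, 87.1 and 66.8 CPM in *fat-1* and 25.1, 46.8 and 85.5 CPM in WT, with a log2 fold change of 0.16 (SE 0.60).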

How the data were processed

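RNA was measured in 3 *fat-1* and 3 WT pooled samples, grouped by the sample labels. The authors mapped reads to GRCm38 with HISAT2, assembled transcripts with StringTie and deposited the estimated counts of each row in 1 matrix, which are whole numbers and not normalized. The annotation, the use of strand and the conversion of coverage to counts are not given in the sources used here, so counts of overlapping genes are uncertain. 0 columns of sample values were left unused.

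Each member was taken as the sum of the rows of its assembled locus, or as its own row where the locus held several symbols. Marker and signalling genes were taken as locus sums throughout, also where the locus held other symbols. Their levels can therefore include a neighbouring gene. Rows and locus sums were tested apart by quasi-likelihood F tests in edgeR 4.0.16 (R 4.3.3), with genotype as the only term, the newer fit (legacy = FALSE), filterByExpr, TMM normalization and Benjamini–Hochberg adjustment over all tested features, at 0.05. CPM are relative to TMM-normalized totals, and standard errors were obtained from the F statistic (log2 fold change over its square root). Biological coefficients of variation were 0.451 (rows) and 0.302 (locus sums). At this depth the precision rests on the 3 samples of a genotype, except for RNAs with few counts. Exon lengths and gene positions are from GENCODE on GRCm38. The promoters are from RefSeq. The scripts were tested on simulated counts.

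The members, lists and tests were chosen with earlier results of these data known. Fold changes are given for the 12 ligands and 8 receptors with the highest mean CPM and for members with an unadjusted *p*-value of 0.05 or less. Of these receptors, 1 is not reported here, though the counts of members include it. Fold changes of the near copies of *Ccl21* and of the neighbouring genes were added after their values were seen. Alternatives were RLE normalization (DESeq2's size factors), library totals only, other filters, the older fit, edgeR's exact test, DESeq2 1.42.0, a replicate block, an epithelial marker covariate and the removal of each sample in turn. Plots and summaries used Python 3.11.15, pandas 2.3.3 and scipy 1.17.1.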

Additional observations from a re-analysis of the deposited data

How the results depend on the processing

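Precision was limited by 3 pools for each genotype and by the spread between pools rather than by the depth, except for members with few counts such as *Ccl24* or *Cxcr1*. No member row or locus passed the adjusted threshold under any alternative, and the smallest adjusted *p*-value was 0.284 for a row, by DESeq2. The number of member rows at the unadjusted threshold, 2, was 1 with a filter of 1 CPM in 3 samples, 6 with a replicate block and 7 with the epithelial marker covariate, and 0 to 4 when each sample was left out. The number of member loci, 3, was 1 with the filter of 1 CPM, 5 by DESeq2, 7 with the replicate block and 10 with the covariate. It was 0 to 6 when each sample was left out (6 without *fat-1* sample 1, 0 without WT sample 2). Over all features, the filter gave 382 of 20174 rows and 63 of 14739 loci, and the replicate block 784 of 30683 and 376 of 24061. The covariate gave 1006 rows and 542 loci, and leaving out each sample 635 to 986 rows and 204 to 542 loci. As a locus sum, *Ccl20* kept its unadjusted *p*-value at or under 0.05 in the alternatives with all samples. So did the locus sum of *Ackr4*, except with library totals only (0.0501) and with the filter of 1 CPM. That filter left *Ackr4* and this locus of *Ccl21b* out. The cause of these shifts was not tested.

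Replicate numbers recur in both genotypes, but same-numbered samples did not deviate together in each pair (correlations of 0.471, −0.0900 and 0.0664 over 24061 loci), so the numbers were not taken as pairs.

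The direction of 12 genes turned in some settings. The log2 fold change of *Ccr7*, near 0, was 0.0011 with RLE normalization, 0.015 with the filter of 1 CPM, 0.0011 by DESeq2 and 0.024 with the replicate block, and that of *Cxcl9* was −0.24 with the replicate block. Leaving out each sample gave −0.30 to 0.15 for *Cxcl1*, −0.56 to 0.27 for *Ccl2*, −0.76 to 0.88 for *Cxcl9*, −0.30 to 0.25 for *Ccl5*, −0.018 to 1.40 for *Cxcl10*, −0.42 to 0.39 for *Ccl7*, −0.018 to 0.60 for *Cx3cl1* and −0.68 to 0.25 for *Ccl11*. Among receptors it gave −0.35 to 0.50 for *Ccr7*, −0.011 to 1.03 for *Cxcr5*, −0.25 to 0.62 for *Ccr2* and −0.19 to 0.86 for *Ccr6*. With the row of the symbol in place of the locus sum, the first 10 genes by level were the same set in another order. *Ccr7* then stood at 56.0 CPM per kilobase, below *Ccl7*, *Cxcl9*, *Ccl8* and *Cxcl5*.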
